A study of Mus musculus with 6 samples.

Results

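The outer segment of a photoreceptor is a modified primary cilium, joined to the cell body by a narrow connecting cilium through which opsins, transducin and all other outer segment proteins must pass. Intraflagellar transport (IFT) complexes B and A carry cargo outward and back along the axoneme, the BBSome moves membrane proteins with them, and the transition zone at the base acts as the gate. Carriers such as UNC119 and PDE6D take lipid-modified proteins through this gate and release them when bound by the GTPase ARL3. Loss of many of these genes is known to cause retinal degeneration, alone or within ciliopathies such as Bardet-Biedl, Joubert and Senior-Løken syndromes.

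Genes were taken as cilium and IFT genes where the symbol began with Ift, Bbs, Nphp or Tctn followed by a digit (28 genes) or was one of 17 further symbols for IFT, transition zone, carrier and axoneme proteins. This gave 45 of the 11339 genes in the table, which holds only genes that passed the authors' filter on low counts, and all 45 entered the comparison. RNA was sequenced from retinas of *Mll1KO* mice, with the genotype MLL1 fl/fl, Chx10-Cre, and of wild type (WT) mice, both of strain C57Bl6/J at P14. Each group had 3 biological replicates, a, b and c, each made from 2 retinas. The Chx10 promoter drives Cre in the progenitors of the retina, so that cells of other origin, such as vessels and microglia, keep the gene. The authors' in situ hybridization, at a later age, still found *Mll1* RNA in a few cells of *Mll1KO* retinas. The WT mice carry neither the floxed alleles nor Cre by their label, so that the deletion and the transgene cannot be told apart in this comparison. Library totals, recovered from the RPKM values, ranged from 19323512 to 23836033 reads in WT and from 17961097 to 23348923 in *Mll1KO*. Expression is given as RPKM, the reads of a gene scaled by its length and by the reads of the library. The 45 genes held between 0.727% and 0.776% of the reads of a library, and the member with the fewest reads still had 165 reads in its lowest library.

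*Kmt2a*, as the deleted gene *Mll1* is named in the table, had an RPKM of 36.1, 36.9 and 34.6 in WT a, b and c and of 22.9, 20.4 and 22.3 in *Mll1KO* a, b and c. All 3 *Mll1KO* libraries lay below all 3 WT libraries, which fits their labels. The difference was -0.69 as a log2 fold change (limma, standard error 0.05, adjusted p = 2.77e-05). Fold changes are on the log2(RPKM + 1) scale, except those with limma-voom, which are on the log2 CPM scale of recovered reads. The pseudocount of 1 understates fold changes of genes with low RPKM. The RPKM also counts exons that are not floxed.

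Markers of the retina were checked first. All 17 rod markers and all 13 cone markers were in the table. In contrast, the motile cilium genes, which mark multiciliated cells, were mostly not analysed here: 6 of 25 entered the comparison, with a mean RPKM of at most 5.19, and the multiciliated cell regulators *Mcidas* and *Gmnc* were not among them. Of 10 markers of the retinal pigment epithelium (RPE), which adheres to dissected retina in varying amounts, 4 entered the comparison. Their summed RPKM was 201.9, 101.2 and 308.0 in WT a, b and c and 87.7, 187.4 and 91.2 in *Mll1KO* a, b and c, with *Ttr* the most abundant. The RPE sums were highest in WT c and lowest in *Mll1KO* a and overlapped between the groups, and 0 of the 4 genes passed limma's adjusted threshold, with 1, *Pmel*, at an unadjusted p under 0.05.

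In *Mll1KO* retinas, 9 of the 45 cilium and IFT genes (20%) differed from WT at a limma adjusted p under 0.05, 4 higher and 5 lower. Across the 11339 genes 23.3% were called, 8.81% higher and 14.5% lower, so that the share among cilium and IFT genes was near that of all genes. Higher in *Mll1KO* were *Ift46*, *Ahi1*, *Bbs4* and *Unc119*, and lower were *Lca5*, *Tctn1*, *Nphp4*, *Ift74* and *Ift122*; the first 4 turn negative when libraries are scaled to rod markers. The median log2 fold change of the 45 genes was -0.02 and that of all genes -0.03. The quartiles of the 45 were at -0.10 and 0.06, against -0.12 and 0.06 for all genes, and the extremes were -0.49 and 0.23. *Lca5*, which encodes lebercilin, was the only member to change by more than 0.3. In 17 of the 45 genes (37.8%) the groups did not overlap, 7 with all *Mll1KO* libraries above all WT libraries and 10 with all below, where 41.1% of all genes had groups that did not overlap. The 4 higher and 5 lower calls became 5 and 2 with median-of-ratios factors and 6 and 2 with upper-quartile factors, as the share of higher calls among all genes went from 37.8% to 53.1% and 51.2%.

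The number of members called was 5 (11.1%) without WT b, where 15% of all genes were called, and 5 without *Mll1KO* c, where 15.5% were. Without the library richest in RPE pigment transcripts in each group (WT c and *Mll1KO* b), a setting chosen after seeing the data, 6 members (13.3%) and 14.7% of all genes were called, the members 2 higher and 4 lower: *Ahi1*, *Unc119*, *Ift74*, *Ift122* and *Nphp4* no longer passed (adjusted p = 0.103, 0.0853, 0.189, 0.162 and 0.221) and *Bbs9* and *Cep290* did (0.0445 and 0.0119). In this setting the log2 fold changes of *Ahi1*, *Unc119*, *Ift74*, *Ift122* and *Nphp4* were 0.18, 0.19, -0.16, -0.16 and -0.17. With all libraries they were 0.22, 0.19, -0.20, -0.16 and -0.21. In bulk retina, fewer cells of a type and less RNA per cell cannot be told apart, and this bears on every difference given here.

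**Figure D1:**
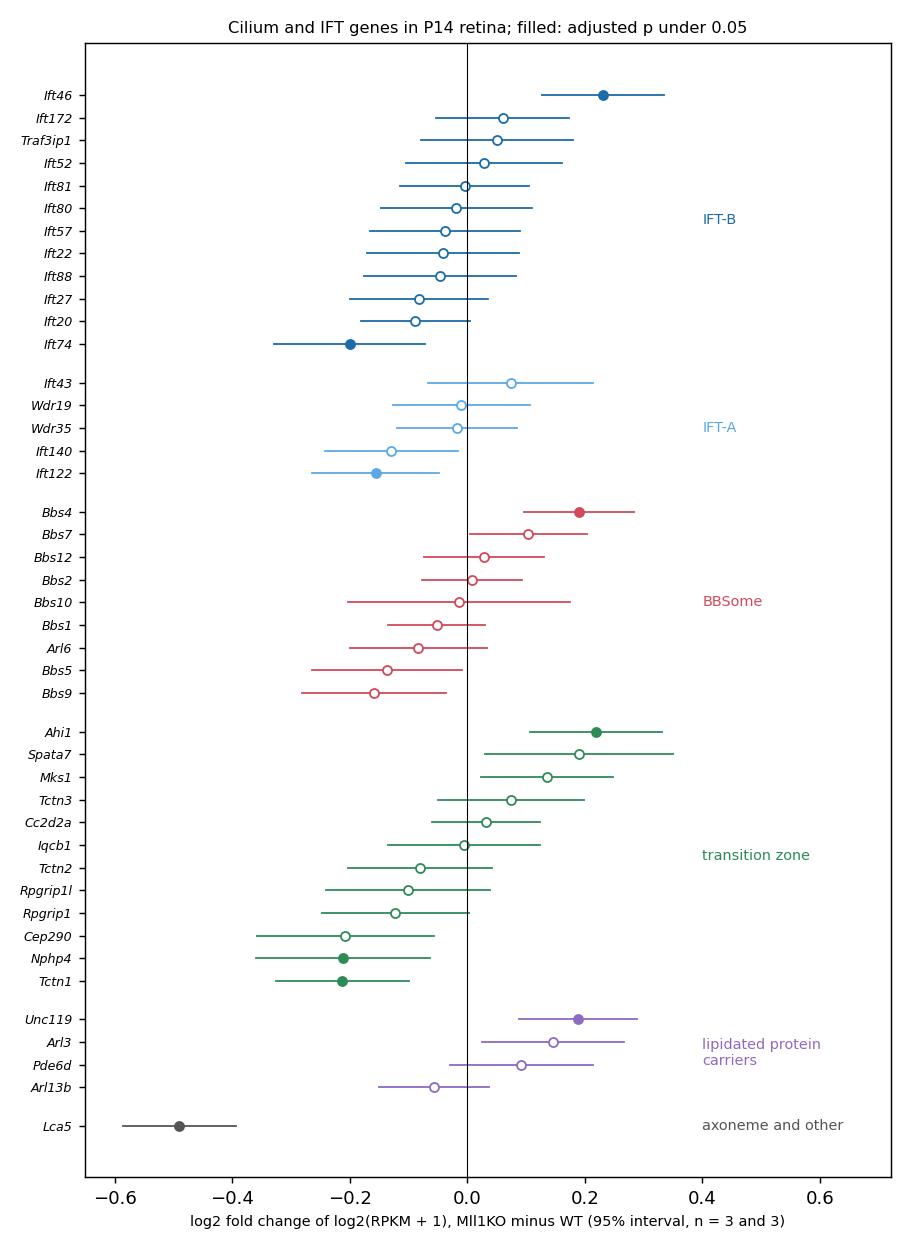
Log2 fold change on the log2(RPKM + 1) scale (*Mll1KO* minus WT, horizontal axis) of 43 of the 45 cilium and IFT genes, grouped by role, with the 95% interval as a line and a filled point where the limma adjusted p was under 0.05 (n = 3 libraries per genotype). Of the 43 points 26 lie below 0 and 17 above, all but *Lca5* between -0.21 and 0.23. When libraries are scaled to the rod markers all of them lie below 0, and the median of all genes is then -0.29.

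The rod markers moved between the groups. Of the 17 rod markers, 12 were higher in *Mll1KO* and 1, *Nr2e3*, was lower, with a median log2 fold change of 0.24. Their summed RPKM was 19380, 18495 and 18968 in WT a, b and c and 23268, 23727 and 22980 in *Mll1KO* a, b and c, so that all 3 *Mll1KO* sums were higher and the mean sum was 123.1% of WT. Of the 13 cone markers 7 were higher and 1, *Opn1sw*, was lower, and their summed RPKM, with *Gnb3* the most abundant, was 588.1, 610.5 and 625.9 in WT a, b and c and 654.6, 693.2 and 701.5 in *Mll1KO* a, b and c. Of the markers of other cells, 9 of the 10 ganglion cell genes in the table and 6 of the 7 horizontal cell genes were lower, 7 of 12 bipolar genes were lower, and 7 of 12 Müller glia genes were higher with 1 lower. Of 11 amacrine genes 2 were higher and 5 lower, and of 7 endothelial genes 1 was higher and 2 lower. The RPKM of the 45 cilium and IFT genes summed to 1681, 1692 and 1642 in WT a, b and c and to 1739, 1731 and 1733 in *Mll1KO* a, b and c, so that all 3 *Mll1KO* sums were above all 3 WT sums. The 3 most abundant members, *Unc119*, *Rpgrip1* and *Arl3*, made up 57.4% of this sum in WT and 59.1% in *Mll1KO*. The other 42 members together came to 712.3 ± 14.1 in WT libraries and 709.3 ± 5.73 in *Mll1KO* libraries (RPKM, SD, n = 3), and these overlapped. The part of the rod and other cell markers in the changes of single members was not tested. When the libraries were rescaled so that the rod markers had the same total in each, the median of all genes shifted by -0.26 and 40 of the 45 members (88.9%) were called, 0 of them higher, against 84.7% of all genes, with 2.42% of those calls higher. This scaling moves all genes of a library alike, and 24 of 45 members lay above the median of all genes under it, against 23 of 45 with the authors' scaling.

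IFT-B, the outward complex, was represented by 12 subunits. 1 was called higher, 1 lower and 10 were not called, and their median log2 fold change was -0.03. *Ift46* (ENSMUSG00000002031; chr9:44767908-44793447, plus strand, GRCm38), a core subunit that stabilises the complex, had an RPKM of 7.79, 7.64 and 7.64 in WT a, b and c and of 9.42, 9.02 and 9.16 in *Mll1KO* a, b and c. All 3 *Mll1KO* libraries were above all 3 WT libraries, which lay close together. *Ift46* had the largest increase among the 45 genes, with a log2 fold change of 0.23 (standard error 0.05, adjusted p = 0.00646), and its call was lost only under the scaling to rod markers (-0.04, adjusted p = 0.546, the highest of a range from 0.00231). *Ift74* (ENSMUSG00000028576; chr4:94614491-94693229, plus strand), which with IFT81 forms the tubulin-binding module of the complex, had an RPKM of 9.84, 10.5 and 10.4 in WT a, b and c and of 8.50, 8.40 and 9.50 in *Mll1KO* a, b and c. The groups did not overlap, although *Mll1KO* c lay closer to WT than the other *Mll1KO* libraries. Its log2 fold change was -0.20 (standard error 0.06, adjusted p = 0.0316), and this call was lost without WT b or c (adjusted p = 0.105 and 0.0858), without *Mll1KO* a or b (0.0771 and 0.0974) and with median-of-ratios or upper-quartile factors (0.0548 and 0.054), its alternatives ranging from 9.49e-05 to 0.189.

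*Ift81*, the partner of IFT74, had a mean of 99.7% of WT (adjusted p = 0.957). The other 9 IFT-B subunits that were not called lay between -0.09 (*Ift20*, adjusted p = 0.152) and 0.06 (*Ift172*, adjusted p = 0.425). They include *Ift88* at -0.05, a core subunit whose hypomorphic mutation shortens photoreceptor outer segments, *Ift52* at 0.03, *Ift80* at -0.02, *Ift57* at -0.04, the GTPase-like subunits *Ift22* at -0.04 and *Ift27* at -0.08, and *Traf3ip1* (IFT54) at 0.05. Transcript levels of the subunits differed 5.07-fold in mean RPKM, from *Ift80* at 5.81 to *Ift20* at 29.4, while the 12 genes summed to 174.6 ± 2.52 RPKM in WT libraries and to 171.7 ± 0.344 in *Mll1KO* libraries (SD, n = 3).

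*Ift46* lies next to the targeted gene, which was noticed after its values were seen. In GRCm38 *Kmt2a* runs from 44803355 to 44881296 on the minus strand of chromosome 9, and 9908 bases separate it from *Ift46*, with only *Tmem25* between them among the genes compared. *Tmem25* had an RPKM of 14.9, 15.5 and 15.6 in WT a, b and c and of 16.8, 17.3 and 17.4 in *Mll1KO* a, b and c (log2 fold change 0.15, adjusted p = 0.029). Both neighbours were thus higher in every *Mll1KO* library. *Arcn1*, the next gene beyond *Ift46*, was at -0.01 (adjusted p = 0.925) with overlapping groups. *Ube4a*, the nearest on the other side, was at -0.12 (adjusted p = 0.0985), with every *Mll1KO* library below every WT library. Of the 20 genes compared within 500000 bases of *Kmt2a*, 5 (25%) were called, 3 higher and 2 lower, against 23.3% of all genes. The part of this position in the value of *Ift46* was not tested. Of the 5 members on chromosome 9, 3 were called, *Ift46* and *Bbs4* higher and *Lca5* lower, against 20% of all 45 members. The part of this chromosome in their values was not tested either.

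IFT-A, the return complex, was represented by 5 subunits, 1 of them called lower. *Ift122* (ENSMUSG00000030323; chr6:115853470-115926699, plus strand), a core subunit, had an RPKM of 16.1, 16.6 and 16.4 in WT a, b and c and of 15.3, 14.6 and 13.8 in *Mll1KO* a, b and c. All 3 *Mll1KO* libraries were below all 3 WT libraries, *Mll1KO* a being the nearest, and the *Mll1KO* mean was 89.2% of WT. This is a log2 fold change of -0.16 (standard error 0.05, adjusted p = 0.0427). This call was lost without any 1 of WT a, b and c (adjusted p = 0.0695, 0.129 and 0.0944), without *Mll1KO* b or c (0.0934 and 0.147), with median-of-ratios or upper-quartile factors (0.0951 and 0.0861) and without the variance trend (0.0519), its alternatives ranging from 4.49e-05 to 0.162. *Ift140*, another core subunit, also had every *Mll1KO* library below every WT library and a log2 fold change of -0.13, but was not called (adjusted p = 0.0949). *Wdr19* (IFT144) at -0.01 and *Wdr35* (IFT121) at -0.02 had means of 99.3% and 98.7% of WT. *Ift43*, the smallest subunit and the most abundant transcript of the complex at a mean RPKM of 35.1, was at 0.07 (adjusted p = 0.429).

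The BBSome and the proteins that assemble or recruit it were represented by 9 genes, 1 of them called higher. *Bbs4* (ENSMUSG00000025235; chr9:59321990-59353508, minus strand), a subunit that connects the complex to centriolar satellites, had an RPKM of 37.3, 36.4 and 37.1 in WT a, b and c and of 43.3, 40.3 and 43.4 in *Mll1KO* a, b and c. The groups did not overlap, with *Mll1KO* b nearest to WT. *Bbs4* had a log2 fold change of 0.19 (standard error 0.04, adjusted p = 0.0102), and of the alternatives only the scaling to rod markers, under which it was at -0.10, ended this call (adjusted p = 0.0823, the highest of a range from 0.00409). The other 8 genes did not pass the test. *Bbs9* was at -0.16 (adjusted p = 0.0616) with every *Mll1KO* library below every WT library, *Bbs5* at -0.14 (adjusted p = 0.112) and *Bbs7* at 0.10 (adjusted p = 0.122) with every *Mll1KO* library above every WT library. *Bbs9* was called lower without *Mll1KO* b (adjusted p = 0.033) and with limma-voom (0.0334), and *Bbs7* was called higher without WT a (0.0383), where the alternatives reached 0.211 and 0.394. *Bbs2* differed least, at 36.3 ± 0.0506 RPKM in WT and 36.6 ± 1.07 in *Mll1KO* (SD, n = 3), and *Bbs1* was at -0.05 (adjusted p = 0.345). The chaperonin-like assembly factors *Bbs10* and *Bbs12* were at -0.01 and 0.03, and *Arl6*, the GTPase that recruits the BBSome to membranes, at -0.08. *Bbs10* had the widest interval of these, from -0.20 to 0.17.

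The transition zone was represented by 14 genes, 1 called higher and 2 lower. *Ahi1* (ENSMUSG00000019986; chr10:20952547-21080429, plus strand), which encodes jouberin and is mutated in Joubert syndrome, had an RPKM of 43.0, 48.4 and 43.8 in WT a, b and c and of 51.2, 53.9 and 52.5 in *Mll1KO* a, b and c. All 3 *Mll1KO* libraries were higher, although WT b stood above the other WT libraries. The mean was 116.6% of WT, a log2 fold change of 0.22 (standard error 0.05, adjusted p = 0.0122). Its call was lost without the library richest in pigment transcripts in each group (0.18, adjusted p = 0.103) and under the scaling to rod markers (-0.08, adjusted p = 0.254), its alternatives ranging from 0.00436. *Tctn1* (ENSMUSG00000038593; chr5:122237848-122264460, minus strand), a tectonic of the membrane complex of the gate, had an RPKM of 11.0, 10.5 and 10.3 in WT a, b and c and of 8.71, 9.40 and 8.91 in *Mll1KO* a, b and c. Every *Mll1KO* library was below every WT library, and the mean was 85.0% of WT. The log2 fold change of *Tctn1* was -0.21 (standard error 0.05, adjusted p = 0.0145), which was not called without *Mll1KO* c (adjusted p = 0.0516, the highest of a range from 2.32e-05). Of its exon bases 25.5% overlap exons of another gene, mostly *Hvcn1*, and since the counting is not stated to use strand, its value is uncertain. The same holds to a lesser degree for *Rpgrip1* (8.70% of exon bases), *Ift57* (7.86%) and *Cep290* (7.58%).

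*Nphp4*, a scaffold protein of the transition zone, was called although its groups overlapped, and its values are given here after having been seen. Its RPKM was 12.8, 14.6 and 13.9 in WT a, b and c and 12.9, 11.2 and 11.3 in *Mll1KO* a, b and c, so that *Mll1KO* a was above WT a. The log2 fold change of -0.21 (standard error 0.07, adjusted p = 0.0449) was not called without WT b or c (adjusted p = 0.155 and 0.105), without *Mll1KO* b or c (0.13 and 0.141), with median-of-ratios or upper-quartile factors (0.0704 and 0.0681) and without the variance trend (0.0516), its alternatives ranging from 0.000133 to 0.221. *Cep290*, the large protein of the links between the axoneme and the membrane, whose loss is a frequent cause of Leber congenital amaurosis, missed the threshold at -0.21 (adjusted p = 0.0511). It was called lower without WT c (-0.27, adjusted p = 0.0158), without *Mll1KO* b (-0.25, adjusted p = 0.0449) and with limma-voom (-0.22, adjusted p = 0.0216), its alternatives reaching 0.174.

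*Rpgrip1*, which anchors RPGR in the connecting cilium, was the most abundant transition zone transcript, at 273.8 ± 16.0 RPKM in WT and 251.4 ± 13.1 in *Mll1KO* (SD, n = 3), a log2 fold change of -0.12 (adjusted p = 0.145). Its paralog *Rpgrip1l* was the least abundant of the 45 genes, with an RPKM of 2.34, 2.48 and 2.02 in WT a, b and c and of 2.13, 2.03 and 2.01 in *Mll1KO* a, b and c. The groups overlapped, WT c lying within the *Mll1KO* range, and the log2 fold change of -0.10 was not called (adjusted p = 0.275). *Mks1*, of the B9 domain module, was at 0.14 (adjusted p = 0.0796), with every *Mll1KO* library above every WT library, and was called with median-of-ratios or upper-quartile factors (adjusted p = 0.0466 and 0.0475, with alternatives up to 0.234). *Spata7*, which stabilises the photoreceptor part of the zone, was at 0.19 (adjusted p = 0.0838) with overlapping groups. *Cc2d2a* at 0.03, *Iqcb1* (nephrocystin 5) at -0.01, *Tctn2* at -0.08 and *Tctn3* at 0.07 were not called either.

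The carriers of lipid-modified proteins and their GTPases had the highest summed RPKM among the roles. *Unc119* (ENSMUSG00000002058; chr11:78343482-78349164, plus strand), which binds the acylated α subunit of transducin, was the most abundant of the 45 genes, with an RPKM of 461.4, 462.7 and 470.2 in WT a, b and c and of 515.6, 538.0 and 535.9 in *Mll1KO* a, b and c. All 3 *Mll1KO* libraries were above all 3 WT libraries, and the mean was 114.0% of WT. The difference was 0.19 on the log2 scale (standard error 0.04, adjusted p = 0.0143). It was not called without WT b (adjusted p = 0.0545) or *Mll1KO* b or c (0.0543 and 0.064), and it was at -0.11 under the scaling to rod markers, its alternatives ranging from 0.00189 to 0.0853. *Arl3*, the GTPase that releases the cargo, had every *Mll1KO* library above every WT library, at 220.6 ± 14.8 RPKM in WT and 243.9 ± 7.80 in *Mll1KO* (SD, n = 3), but was not called (0.15, adjusted p = 0.0795). It was called with limma-voom (adjusted p = 0.0494), with upper-quartile factors (0.0491) and without WT a (0.0158), its alternatives reaching 0.264. *Pde6d*, the carrier of prenylated proteins, was at 0.09 (adjusted p = 0.249), called without *Mll1KO* a (adjusted p = 0.0418, with alternatives up to 0.636). *Arl13b*, the exchange factor of ARL3, was at -0.06 (adjusted p = 0.365). The 4 genes summed to an RPKM of 744.2, 718.2 and 725.7 in WT a, b and c and of 811.2, 825.9 and 820.8 in *Mll1KO* a, b and c, which did not overlap.

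*Lca5* (ENSMUSG00000032258; chr9:83390293-83441127, minus strand) encodes lebercilin, an axonemal protein that interacts with IFT complexes and is mutated in Leber congenital amaurosis. Its RPKM was 14.4, 14.9 and 14.4 in WT a, b and c and 10.1, 9.94 and 10.2 in *Mll1KO* a, b and c. The 3 libraries of each genotype lay close together, and every *Mll1KO* library was far below every WT library. At 69.2% of WT it had the largest change of the 45 genes, a log2 fold change of -0.49 (standard error 0.04, adjusted p = 7.35e-05). It was called lower under every alternative run, with an adjusted p of at most 0.00168.

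**Figure D2:**
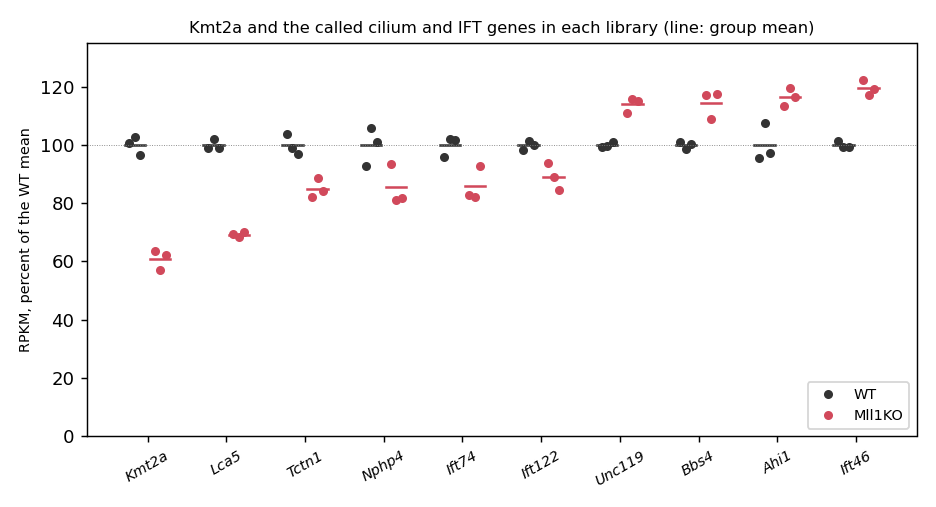
RPKM of *Kmt2a* and of the 9 called cilium and IFT genes in each library, as percent of the WT mean of the gene (vertical axis; points: libraries a, b and c of WT in black and *Mll1KO* in red, lines: group means, n = 3). *Lca5* is at 69.2% of WT in *Mll1KO*, the other 4 lower genes are between 85.0% and 89.2%, the 4 higher genes between 114.0% and 119.6% (all 4 below WT when scaled to rod markers), and *Nphp4* is the gene whose groups overlap.

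The 36 members that were not called lay between -0.21 and 0.19, 23 below 0 and 13 above. In 6 of them every *Mll1KO* library was below every WT library and in 3 every *Mll1KO* library was above, together 25% of the 36, against 23.4% of all genes that were not called. Their 95% intervals reached down to -0.36 and up to 0.35. Among all 45 genes, 37 had an interval that lay between -0.3 and 0.3.

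Other ciliary genes were compared in 7 lists of 115 genes in all, of which 89 were in the table. Of these 21 (23.6%) were called, 5 higher and 16 lower, against 23.3% of all genes, and their median log2 fold change was -0.04. The count was 12 (13.5%) without WT a, 12 without WT b and 11 (12.4%) without *Mll1KO* c, where 17.4%, 15.0% and 15.5% of all genes were called. Of 15 further IFT and BBSome partners 2 were called, both lower, the IFT-B subunit *Ttc26* (IFT56) at -0.22 (adjusted p = 0.021) and *Rabl2*, a GTPase that binds IFT-B, at -0.22 (adjusted p = 0.0185). Of 11 motor genes 3 were lower and 1 higher, from the IFT dynein intermediate chain *Wdr60* at -0.18 (adjusted p = 0.0236) to the kinesin *Kif17* at 0.18 (adjusted p = 0.0426). In *Kif17* all *Mll1KO* libraries (2.10, 1.99 and 1.88 RPKM in a, b and c) were above all WT libraries (1.61, 1.77 and 1.55). Of 16 further transition zone and inversin genes 3 were lower and 2 higher. *Rpgr*, whose product is held in the connecting cilium by RPGRIP1, had an RPKM of 8.74, 8.99 and 8.41 in WT a, b and c and of 6.12, 6.91 and 6.13 in *Mll1KO* a, b and c, without overlap, a log2 fold change of -0.40 (adjusted p = 0.00129). *Tmem218* was highest on the log2(RPKM + 1) scale at 0.33 (adjusted p = 0.0105), with a mean of 127.2% of WT, while *Anks6*, named after its values were seen, was at 133.2% (adjusted p = 0.00243).

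Of 20 basal body and centriole genes 3 were called, all lower, from *Cep83*, a distal appendage protein, at -0.21 (adjusted p = 0.0486) to *Pcnt* at -0.16 (adjusted p = 0.0454). Among 14 genes of the photoreceptor axoneme and calyx, 2 were lower and 1 higher, from *Myo7a*, the Usher myosin, at -0.42 (adjusted p = 0.000824) to *Adgrv1*, an adhesion receptor of the periciliary membrane, at 0.22 (adjusted p = 0.0196). This order is that of the log2(RPKM + 1) scale: the other lower gene, the cadherin *Cdh23*, named after its values were seen, was at 49.7% of WT at a low RPKM (0.654 in WT and 0.325 in *Mll1KO*, adjusted p = 0.00205), and *Myo7a* at 74.0%. Of the 6 motile cilium genes compared, *Rsph9* alone was called, at -0.43 (adjusted p = 0.000473). Among 7 genes of RFX factors, which include activators of ciliary genes, and of their partners, 2 were lower and 1 higher, from *Rfxank*, a partner of RFX5 at MHC class II genes, at -0.41 (adjusted p = 0.00393) to *Rfx2* at 0.22 (adjusted p = 0.0293). Calls of *Rpgr*, *Myo7a*, *Rsph9* and *Rfxank* held in each of the 16 alternatives, with an adjusted p of at most 0.0195, and that of *Tmem218* was lost only under the scaling to rod markers (adjusted p = 0.618). Of the other calls named here, those of *Kif17*, *Pcnt*, *Cep83*, *Ttc26*, *Rabl2*, *Wdr60*, *Adgrv1* and *Rfx2* were lost under several settings. Alternatives are not given for the calls of *Anks6* and *Cdh23*. That of *Kif17* was lost without each library but WT b (adjusted p = 0.0569 to 0.122), that of *Pcnt* without each but *Mll1KO* a (0.0917 to 0.141) and that of *Cep83* without each but WT c (0.0832 to 0.144). *Ttc26* was not called without WT a or b or *Mll1KO* a (adjusted p = 0.0551 to 0.0715) and *Rabl2* without WT a or b or *Mll1KO* c (0.0608 to 0.071). *Wdr60* was not called without WT a or b or *Mll1KO* b or c (adjusted p = 0.0566 to 0.0948), *Adgrv1* without WT a or *Mll1KO* a or c (0.0502 to 0.0698) and *Rfx2* without WT b or c or *Mll1KO* a or c (0.0774 to 0.0971). With median-of-ratios and upper-quartile factors *Wdr60* (adjusted p = 0.057 and 0.0508), *Pcnt* (0.0943 and 0.0859) and *Cep83* (0.0909 and 0.0835) were not called, and with limma-voom *Kif17* (0.0518) and *Cep83* (0.0592) were not. Without the library richest in pigment transcripts in each group *Ttc26* (adjusted p = 0.051), *Rabl2* (0.056), *Kif17* (0.196) and *Pcnt* (0.178) were not called, and under the scaling to rod markers *Kif17* (0.842), *Adgrv1* (0.488) and *Rfx2* (0.793) were not. The lowest adjusted p among the alternatives was 0.0278 for *Kif17* and below that for the other calls whose alternatives are given.

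Promoters were searched for the X-box, the motif bound by RFX factors, since many ciliary genes are known to carry one. The letters searched were GTNNCC and GNAAC, with 3 bases between them, on either strand of the 300 bases from 250 before to 50 after each RefSeq start in GRCm38.p6. Promoters were given for 40 of the 45 genes, and *Ift122*, *Ift80* and *Ift81* were among those without one. The motif was found in 10 of these 40 genes (25%), against 3.28% of 8777 genes of the table and 2.49% of 27025 genes of the promoter table, and in 6 of 75 of the other ciliary genes (8%). Transition zone genes held it in 5 of 12 genes and BBSome genes in 3 of 9, IFT-B genes in 2 of 10, and IFT-A genes and the carriers in 0 of 4 each. By direction, it was in 2 of 4 members called higher, 2 of 4 called lower and 6 of 32 not called (18.8%). The sites of the 4 called members are shown because this degenerate motif was found in genes that moved in opposite directions, with the motif in capitals and up to 4 flanking bases in lower case. *Ahi1* (chr10:20952568-20952581, plus strand) and *Bbs4* (chr9:59353472-59353485, minus strand) were higher in *Mll1KO*, and *Tctn1* (chr5:122264411-122264424, minus strand) and *Nphp4* (chr4:152477911-152477924, plus strand) were lower. The first 3 sites lie in the untranslated part of the first exon, just after the start, and that of *Nphp4* lies 224 bases before its RefSeq start, in an intron of a longer GENCODE transcript. The motifs of *Ahi1* and *Tctn1* match on either strand and are shown on the strand of the gene. A match is a description of letters and not of binding.
Ahi1: ctgaGTTACCTAGGCAACagcg
Bbs4: gctgGTCGCCCGGGAAACggtc
Tctn1: gactGTTGCCCGGGCAAC
Nphp4: gcccGTCTCCTAGGTAACgcgc
The remaining sites were in *Bbs1*, *Bbs7*, *Ift22* (a pair of sites), *Ift57*, *Mks1* and *Tctn2*, whose log2 fold changes ranged from -0.08 to 0.14.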

How the data were processed

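The authors aligned single-end reads with STAR 2.0.4b (mm10 in the submitters' notes), counted them per gene with featureCounts 1.45, and required a CPM of over 5 in no fewer than 5 samples. RPKM was used as scaled by the authors. Columns of the authors' own edgeR comparison (log fold change, log CPM, p and FDR) were not used. The 11404 lines gave 11339 genes, 59 of them on more than 1 line, and 18 symbols turned into dates were restored. Whole reads within 0.05 were recovered from RPKM for 99.99% of genes. Genotypes were compared with limma 3.58.1 in R 4.3.3 (variance trend, no covariates) on log2(RPKM + 1), with Benjamini-Hochberg adjustment over all genes and a two-sided threshold of 0.05, tested on simulated data. The members and lists were chosen with earlier results of these data known. Values in every library are given for *Kmt2a*, for called members without overlap (up to 8 each way), for the most and least abundant member and for the largest change in each role; the extremes of each list's calls are named. Coordinates are from GENCODE vM21, which all 45 members matched. Strandedness of counting is not given in the sources used here. Tables were made with Python 3.11.15, numpy 2.4.6, pandas 2.3.3 and matplotlib 3.10.9. Values of some members and markers are not reported here; counts, medians and sums include them.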

Additional observations from a re-analysis of the deposited data

How the results depend on the processing

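The alternatives were pseudocounts of 0.1 and 5, a mean RPKM of at least 1, other scaling factors, no variance trend, limma-voom on recovered reads, a replicate block, leaving out each library, and, added after seeing the data, leaving out the most pigmented library of each group. Scaling to an equal sum over rod markers moved the calls to 9599 of all genes (2.42% higher), 40 members and 80 related genes, and the members' median to -0.29, where the median of all genes was -0.29. It turned the sign of *Ahi1* (-0.0752), *Arl3* (-0.15), *Bbs12* (-0.25), *Bbs2* (-0.28), *Bbs4* (-0.10), *Bbs7* (-0.19), *Cc2d2a* (-0.26), *Ift172* (-0.23), *Ift43* (-0.22), *Ift46* (-0.037), *Ift52* (-0.25), *Mks1* (-0.14), *Pde6d* (-0.20), *Tctn3* (-0.20), *Traf3ip1* (-0.22), *Unc119* (-0.11), *Adgrv1* (-0.0504), *Kif17* (-0.0134) and *Rfx2* (-0.0197) and of *Spata7*, which was called neither way, by construction of the scaling. The members' median was 0.011 with median-of-ratios and 0.0076 with upper-quartile factors. Leaving out the most pigmented libraries gave 1662 genes, 6 members, 13 related genes and a median of -0.0547; fewer samples enter this fit. Without 1 library, 1704 (WT b) to 2536 (*Mll1KO* a) genes, 5 (WT b, *Mll1KO* c) to 10 (WT a) members and 11 (*Mll1KO* c) to 17 (WT c, *Mll1KO* a) related genes were called, and the median was -0.0509 (WT c) to -0.0014 (WT b). The cause of these ranges was not tested.

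Replicate letters did not pair the libraries: the deviations of same-lettered libraries correlated at -0.0395 (a), -0.19 (b) and -0.00714 (c), and no library correlated best with its own letter. With the replicate block 2242 genes, 9 members (*Cep290* and *Bbs9* in place of *Ift122* and *Nphp4*) and 17 related genes were called. *Kif17* and *Cep83* lost their calls in it too, as did *Ttc26* and *Pcnt*. The other settings kept the 3 counts within 1.5 times and the median within the spread between libraries. Depth was at least 165 reads for every member in every library.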
